A study of Mus musculus with 6 samples.

Results

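The genes of the cytosolic ribosomal proteins were described in CD8 T cells that differed in the receptor NKG2D. Members were the gene symbols made of Rpl or Rps and a number, with or without a final a or x, together with Rplp0, Rplp1, Rplp2 and Rpsa. This rule uses names alone and leaves out pseudogenes, copies with a suffix and the Rps6k kinases. It found 77 of the 23284 genes in the files, 46 of the large 60S subunit and 31 of the small 40S subunit. All 77 passed the filter on low counts. The cells came from the lymph nodes of C3H/HeJ mice and were sorted as CD3+CD8+CD44+CXCR3+ T cells and then parted into NKG2D+ and NKG2D- cells. There were 3 RNA sequencing libraries of each population, numbered 1 to 3, and the series describes the source as separate mice. Libraries with the same number count here as 1 mouse. They also carry 1 lane tag, and the effects of mouse and of lane cannot be told apart. The mice's age, treatment and disease state are not given in the sources at hand, and no transgene or deletion is named in the labels.

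A cytosolic ribosome holds 1 copy of nearly every ribosomal protein, so the proteins are needed in matched amounts. Their mRNAs typically begin with a C followed by a run of pyrimidines (C or T), the 5′ terminal oligopyrimidine or TOP motif, through which the mTORC1 kinase pathway sets their translation. In T cells, activation through the antigen receptor raises ribosome production as cells grow and divide, and quiescent cells keep stores of ribosomal protein mRNA. The RNA level measured here is not the amount of ribosomes or of translation.

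Start sites of some members named below are shown first, because the TOP motif is the feature these genes are known to share. They are a selection that leaves out several named members with short pyrimidine runs, such as Rplp0 (7 bases), Rpsa (5), Rpl10 (4) and Rpl26 (4). Another start of Rpl34, with a run of 8 bases, is not printed either. The printed starts therefore do not show how common long runs are. Sequences are from RefSeq, build GRCm38.p6, from 25 bases before to 15 bases after the annotated start on the strand of the gene. The longest pyrimidine run near the start is in capitals.
Rpl12 (chr2:32961687-32961726, plus strand): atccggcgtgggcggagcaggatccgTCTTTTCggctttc
Rplp2 (chr7:141447626-141447665, plus strand): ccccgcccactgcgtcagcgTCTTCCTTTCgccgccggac
Rps6 (chr4:86857353-86857392, minus strand): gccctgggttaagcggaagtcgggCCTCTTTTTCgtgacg
Rpl5 (chr5:107900503-107900542, plus strand): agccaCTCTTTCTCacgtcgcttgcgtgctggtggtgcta
Rpl38 (chr11:114668555-114668594, plus strand): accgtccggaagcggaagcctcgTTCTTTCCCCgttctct
Rpl13a (chr7:45128731-45128770, minus strand): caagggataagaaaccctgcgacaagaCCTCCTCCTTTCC
Rpl34 (chr3:130730323-130730362, minus strand): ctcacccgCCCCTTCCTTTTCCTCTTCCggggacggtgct
Rps27 (chr3:90213634-90213673, minus strand): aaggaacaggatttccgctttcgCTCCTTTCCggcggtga
Rpl41 (chr10:128549154-128549193, minus strand): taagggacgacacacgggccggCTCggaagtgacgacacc
The run of Rpl12, Rplp2, Rps6, Rpl38, Rpl13a and Rps27 lies at or beside the annotated start, and that of Rpl13a goes on past the printed stretch. In Rpl5 the run lies before the annotated start, and so does most of that in Rpl34. Rpl41, the shortest member, has no run longer than 3 bases there. Start sites of 57 of the 77 members were used, 67 starts in all. Starts on an excluded chromosome and starts without a full 300-base sequence were left out, among members and among all genes.

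A run of at least 8 pyrimidines within 25 bases of the start was found at 31 of the 67 member starts (46.3%), against 19.7% of the 32851 starts of all genes. CCGGAAG or its reverse complement CTTCCGG, the core bound by ETS-family factors, occurred within the 300 bases around 25 member starts (37.3%), against 8.86% of all starts. AAGATGGC or GCCATCTT, the core of the YY1 motif, occurred at 7 (10.4%) against 2.75%. The printed stretches of Rpl38 and Rpl34 hold the letters of the ETS core, that of Rpl34 as the reverse complement. TATAAA, read on the strand of the gene in the 50 bases before the start, was found at 0 of 67 member starts and at 2.63% of all starts. These are matches of letters, and several starts belong to 1 gene. The ETS and YY1 cores were searched on both strands, and the pyrimidine runs on the strand of the gene only.

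Library depth was 41168816 to 89184611 gene counts, and all 3 NKG2D+ libraries were deeper than their NKG2D- partners. Levels are given as CPM, a gene's counts scaled to a common library size. The RNA of Klrk1, the NKG2D gene, differed in the direction of the labels, with 354 ± 49.7 CPM in the NKG2D+ group against 35.9 ± 1.35 (SD, n = 3). Cd44, a sort marker of both populations, was at 430, 176 and 224 CPM in NKG2D+ against 137, 136 and 133 CPM in NKG2D- libraries. Its groups did not overlap (log2 fold change 1.03, adjusted p = 0.130 by edgeR and 0.0051 by DESeq2). Cxcr3, the other shared marker, overlapped between groups (log2 fold change 0.19, adjusted p = 0.448 by edgeR). Reads aligned to several places, which were not assigned to genes, were 20.3% ± 0.624 of the NKG2D+ reads against 24.0% ± 2.33 of the NKG2D- reads (SD, n = 3). The summed CPM of 12 B-cell markers was 676, 461 and 512 in NKG2D+ libraries 1, 2 and 3, against 173, 358 and 312 in the NKG2D- libraries. Myeloid and dendritic markers (15 genes) summed to 132, 95.03 and 103 against 81.1, 84.0 and 78.5 CPM, and plasma-cell markers (6 genes) to 192, 74.3 and 124 against 62.6, 59.4 and 57.3 CPM. Of the plasma-cell genes, Sdc1 and Tnfrsf17 were below 1 CPM in every library. Igj reached 3.19 CPM in NKG2D+ library 3 and 3.15 CPM in NKG2D- library 3. All 5 tested plasma-cell genes had positive log2 fold changes of NKG2D+ over NKG2D-, against 6112 of the 12951 genes tested. By edgeR 1 of the 5 was called higher, against 1.65% of all genes. This was Prdm1, at 33.3 against 8.27 CPM (group means, adjusted p = 0.0443). Xbp1, Irf4 and Prdm1 made up most of each plasma-cell sum, with 77.1, 64.8 and 48.6 CPM in NKG2D+ library 1. Which cells held the RNA of these genes was not tested. Of 7 erythroid genes, 3 were at 0. Summed B-cell markers were highest in NKG2D+ library 1 and lowest in NKG2D- library 1, the libraries in which the summed ribosomal protein genes were lowest and highest. Single markers did not all have this order. Cd22 was at 147, 200 and 207 CPM in NKG2D+ against 58.0, 113 and 115 CPM in NKG2D- libraries. Cd72 was at 61.6, 66.3 and 71.5 against 61.9, 72.3 and 72.2 CPM.

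By edgeR no ribosomal protein gene passed the test between the populations, while every one of them had a lower estimated level in NKG2D+ cells. In its quasi-likelihood test with Benjamini-Hochberg adjustment over 12951 genes, 0 of the 77 members were called in either direction, against 2.02% of all genes tested (0.363% called as lower). At an unadjusted p under 0.05, 68 of the 77 were lower and 0 higher, where 8.62% of all genes were lower at that level. The 9 other members included Rpl13a, Rpl26, Rpl27, Rpl30, Rpl34, Rpl38 and Rps27. All 77 log2 fold changes of NKG2D+ over NKG2D- were negative, against 52.8% of all genes. Their median was -0.40, a level in NKG2D+ cells of 0.759 times that in NKG2D- cells, and that of all genes was -0.01. They ran from -0.54 for Rps20 to -0.12 for Rps27, with quartiles of -0.45 and -0.36, and the median standard error of a single member was 0.13.

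The count of calls depended on the test and on 1 library. DESeq2 called 41 of the 77 members lower and 0 higher, where it called 3.03% of all genes lower. Without NKG2D+ library 2, edgeR called 67 members lower, against 3.10% of all genes, and with any other library left out it called 0. The members were described with all 6 libraries throughout.

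**Figure D1:**
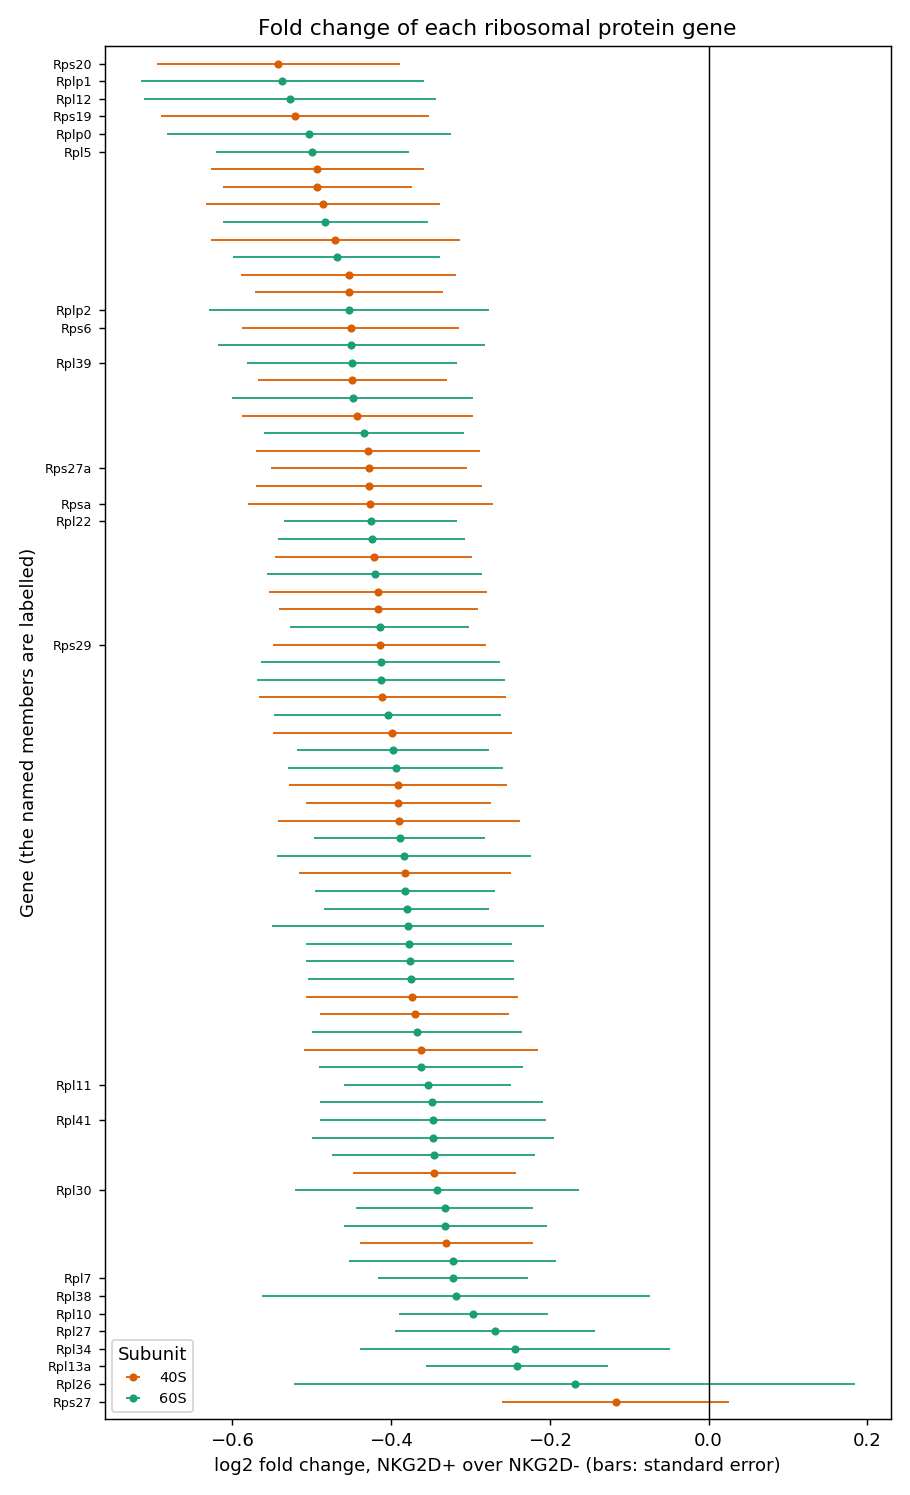
Log2 fold change of NKG2D+ over NKG2D- for each of the 77 ribosomal protein genes (x axis), sorted from the most negative at the top with the members chosen for naming labelled, with 1 standard error from edgeR to each side. Points of the 60S and 40S subunits are mixed along most of the range, while those at the least negative end are mostly 60S, apart from Rps27. All points lie left of 0, and the bars of Rpl26 and Rps27 cross it.

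Summed over all members, ribosomal protein RNA came to 85005, 115363 and 89459 CPM in NKG2D+ libraries 1, 2 and 3, and to 137409, 128497 and 120224 CPM in the NKG2D- libraries. All 3 NKG2D+ sums were below all 3 NKG2D- sums, and the gap between the highest NKG2D+ and the lowest NKG2D- library was small beside the spread within each group. As a share of all gene counts this was 9.92% ± 1.46 in NKG2D+ and 12.5% ± 0.942 in NKG2D- cells (SD, n = 3 each). Without TMM scaling the groups overlapped, since this share was 11.58% in NKG2D+ library 2 and 11.45% in NKG2D- library 3. The 95% exact binomial interval of each library's share was narrow, for example 8.83% to 8.85% in NKG2D+ library 1, and covers counting error only. CPM values are shares, so a lower value cannot be told apart from more RNA of other genes, and in bulk samples fewer cells of a type cannot be told apart from less RNA per cell.

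Within NKG2D+ cells, library 2 stood apart. It was the highest of the 3 for 75 of the 77 members, the exceptions being Rpl26 and Rpl30, and it lay above the lowest NKG2D- library for 20 members. Of the other NKG2D+ libraries, library 3 lay above the lowest NKG2D- library for Rpl26, Rpl34 and Rpl38, and library 1 for Rpl34. On the NKG2D- side, library 1 was the highest for 68 members and library 3 the lowest for 72. Every NKG2D+ library was below every NKG2D- library for 56 of 77 members, against 14.1% of all genes, and no member had the reverse order. In library 2 of NKG2D+ cells 8 members were among its 20 most abundant genes, against 5 and 6 in libraries 1 and 3 and 9 or 10 in NKG2D- libraries.

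**Figure D2:**
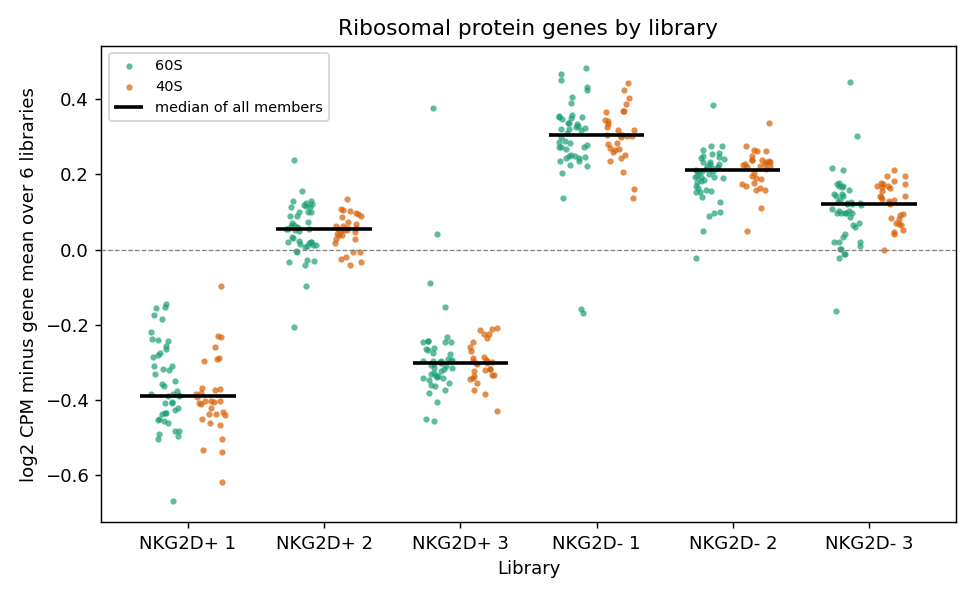
Log2 CPM of each ribosomal protein gene minus its own mean over the 6 libraries (y axis), by library (x axis), with 60S and 40S genes in separate columns and the median of all 77 as a black bar. The medians of libraries 1, 2 and 3 are -0.39, 0.05 and -0.30 (NKG2D+) and 0.30, 0.21 and 0.12 (NKG2D-), and both subunits shift together in each library.

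Compared mouse by mouse, the difference had 1 direction and very different sizes. In mouse 1 all 77 members were lower in NKG2D+ cells, with a median log2 ratio of -0.67. In mouse 2 the median was -0.15 and 76 were lower, the exception being Rps27. In mouse 3 it was -0.42 with 76 lower, and Rpl34 was level at 0.01. Among all genes tested 52.7%, 50.2% and 53.4% were lower in mice 1, 2 and 3. The summed NKG2D+ level was 61.9%, 89.8% and 74.4% of the NKG2D- level in these mice. Summed B-cell markers were at 392%, 129% and 164% of the NKG2D- level in the same mice, and summed genes of naive T cells at 61.6%, 85.2% and 74.1% (43.2%, 78.3% and 63.7% without Il7r). Of the B-cell markers, Cd22 and Cd72 did not follow the sum within NKG2D+ cells, where library 1 was their lowest. The part of other cells and of T-cell state in the ribosomal protein difference was not tested.

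The 2 subunits differed little from each other. Summed 60S genes stood at 47944, 64435 and 49550 CPM in NKG2D+ against 76490, 71211 and 66251 CPM in NKG2D- libraries, and summed 40S genes at 37062, 50928 and 39910 against 60919, 57286 and 53973 CPM. The ratio of 40S to 60S sums was 0.773, 0.790 and 0.805 in NKG2D+ cells, against 0.796, 0.804 and 0.815, so the groups overlapped, while within each mouse the ratio was lower in NKG2D+ cells. The median log2 fold change was -0.38 for the 46 genes of the 60S subunit and -0.42 for the 31 of the 40S subunit. Because all sums of a library share its scaling, the ratio is free of it.

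**Figure D3:**
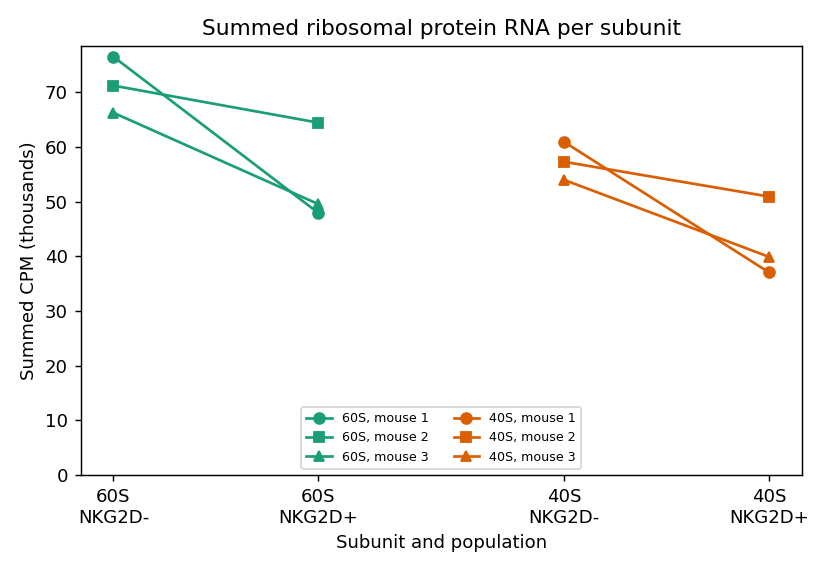
Summed CPM, divided by 1000 (y axis, from 0), of 60S and 40S genes in NKG2D- and NKG2D+ cells, with a line for each mouse. All 6 lines go down from NKG2D- to NKG2D+, by least in mouse 2 and most in mouse 1, in both subunits.

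The genes of the P stalk had the most negative median of the member groups, at -0.52 over 4 genes. The stalk is the arm of the 60S subunit that recruits the elongation factors, with Rplp0 as its base, dimers of Rplp1 and Rplp2 as its arms and the Rpl12 protein beside it. Rplp0 was at 2550.3, 3929 and 2730.45 CPM in NKG2D+ and 4735, 4375 and 3943 CPM in NKG2D- libraries (log2 fold change -0.50, SE 0.18, adjusted p = 0.175). Rplp1 stood at 1357, 2032 and 1389 CPM against 2620.1, 2220.2 and 2092 CPM (log2 fold change -0.54, SE 0.18, adjusted p = 0.155). The groups did not overlap for either gene, although NKG2D+ library 2 came close to NKG2D- library 3 in both. Rplp2 did overlap, with 792, 1126 and 807 CPM against 1469, 1194 and 1065 CPM. Rpl12, whose start sequence is printed above, was at 1686, 2595 and 1735 CPM against 3193, 2878 and 2599.7 CPM (log2 fold change -0.53, SE 0.18). All 4 were lower at an unadjusted p under 0.05, against 8.62% of all genes. After adjustment 0 passed by edgeR and 3 by DESeq2, as lower, where 0.363% and 3.03% of all genes were called lower. The 4 stalk genes made up 7.51%, 8.39% and 7.45% of ribosomal protein counts in the NKG2D+ libraries, against 8.75%, 8.30% and 8.07%. NKG2D+ libraries 1 and 3 had the lowest shares, and NKG2D+ library 2 lay among the NKG2D- libraries.

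Rpl5 and Rpl11 form with the 5S rRNA a particle that is built into the 60S subunit and that, when free, binds the p53 regulator MDM2. Rpl5 was at 2035, 2698 and 2229.7 CPM in NKG2D+ and 3426, 3230.4 and 3184 CPM in NKG2D- libraries, with no overlap and a spread in NKG2D- cells of 129 CPM (SD, n = 3). The estimate was -0.50 on the log2 scale (SE 0.12), with an adjusted p of 0.0871. Rpl11 was at 1024, 1282 and 1074 against 1482, 1474 and 1364 CPM (log2 fold change -0.35, SE 0.11, adjusted p = 0.127). Both partners were thus lower in all 3 NKG2D+ libraries than in any NKG2D- library, Rpl5 by a larger estimate, and the difference between them was not tested.

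Rpl10, which is added late to the 60S subunit and shapes its catalytic core, showed a smaller difference. It was at 1323, 1440.3 and 1225 CPM in NKG2D+ and 1747, 1577 and 1574 CPM in NKG2D- libraries (log2 fold change -0.30, SE 0.09, adjusted p = 0.144). The groups did not overlap. Rpl7 had the narrowest spread within groups of all members, at 0.10 on the log2 scale. Its libraries read 1403, 1649 and 1397 CPM against 1906, 1844 and 1813 CPM, also without overlap (log2 fold change -0.32, SE 0.09, adjusted p = 0.124).

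Rpl22, a 60S protein with a known role in T-cell development, was at 362, 475 and 389.5 CPM in NKG2D+ and 569, 545 and 534 CPM in NKG2D- libraries. Its log2 fold change was -0.43 (SE 0.11, adjusted p = 0.0947). Its paralog Rpl22l1, which can take its place in the ribosome, was at 84.7, 127 and 114 CPM against 154, 159.5 and 167 CPM (log2 fold change -0.56, SE 0.14, adjusted p = 0.0931). The groups did not overlap for either gene of the pair, and neither passed by edgeR. DESeq2 gave an adjusted p of 0.0109 for Rpl22 and 0.00758 for Rpl22l1.

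The 7 proteins around the tunnel through which the new chain leaves the 60S subunit had a median log2 fold change of -0.38. At an unadjusted p under 0.05, 6 of their genes were lower, against 8.62% of all genes. Rpl39, a short protein in the tunnel wall, was at 625, 893 and 703 CPM in NKG2D+ and 1013, 1019 and 1000.2 CPM in NKG2D- libraries (log2 fold change -0.45, SE 0.13, adjusted p = 0.125). Its NKG2D- libraries were nearly equal, while NKG2D+ library 2 stood above the other two. The exception among the 7 was Rpl26, which had almost no counts and is described with the scarce genes below.

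Among the 40S genes, Rpsa, the laminin receptor homologue at the mRNA exit, was the most abundant in CPM. It was at 3126, 4519.8 and 3384 CPM in NKG2D+ and 5273, 4924 and 4627 CPM in NKG2D- libraries (log2 fold change -0.43, SE 0.15, adjusted p = 0.181). The groups did not overlap, with NKG2D+ library 2 just below NKG2D- library 3. Rps6, the substrate of the S6 kinases downstream of mTORC1, was at 1894, 2630.1 and 2067 CPM against 3154, 3033 and 2822 CPM (log2 fold change -0.45, SE 0.14, adjusted p = 0.131). The 7 genes lining the mRNA channel, Rpsa among them, had a median of -0.41. All 7 were lower at an unadjusted p under 0.05, against 8.62% of all genes.

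In the head of the 40S subunit, 14 genes had a median log2 fold change of -0.43. For 13 of them every NKG2D+ library was below every NKG2D- library, against 14.1% of all genes. Rps20, the member with the most negative estimate, was at 1111, 1626 and 1207 CPM in NKG2D+ and 2059.5, 1905 and 1779.8 CPM in NKG2D- libraries (log2 fold change -0.54, SE 0.15, adjusted p = 0.115). Rps19 followed at 919, 1479 and 1172 CPM against 1741, 1781 and 1600.4 CPM (log2 fold change -0.52, SE 0.17, adjusted p = 0.148). NKG2D+ library 1 was the lowest and library 2 the highest of the NKG2D+ libraries in both genes. Rps27a, made as a fusion with ubiquitin, was at 844, 1146 and 910.1 CPM against 1342, 1317 and 1243 CPM (log2 fold change -0.43, SE 0.12, adjusted p = 0.122).

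Rps19 is also the gene most often mutated in Diamond-Blackfan anaemia, an inherited failure of red-cell production caused by loss of a ribosomal protein. Of 18 members known from that disease, 15 were lower at an unadjusted p under 0.05, against 8.62% of all genes. After adjustment 0 passed by edgeR and 12 by DESeq2, where 0.363% and 3.03% of all genes were called lower. The median was -0.41, near that of all members. This group overlaps the groups of the head, the tunnel and the 5S particle.

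The members with the smallest differences were Rpl27, Rpl34, Rpl13a, Rpl26 and Rps27. Rpl13a, which also has a role outside the ribosome in translational silencing, was abundant, at 2116, 2499 and 2049 CPM in NKG2D+ against 2834, 2653 and 2390.2 CPM in NKG2D- libraries. NKG2D+ library 2 lay above NKG2D- library 3, and the log2 fold change was -0.24 (SE 0.11, adjusted p = 0.288). Rpl27 was at 685, 791 and 623 CPM against 959, 817 and 752 CPM (log2 fold change -0.27, SE 0.13, adjusted p = 0.282), with overlap of the same 2 libraries. The other three were among the 4 members below 10 CPM in both groups.

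Those 4 scarce members were Rpl26, Rpl30, Rpl34 and Rps27. Rpl26 had 15, 24 and 31 counts in NKG2D+ and 11, 18 and 27 in NKG2D- libraries, about 0.3 CPM in each population, so a difference as small as that of other members was not detectable at this depth. Rps27 was at 6.14, 7.20 and 5.62 CPM against 7.23, 6.79 and 6.56 CPM (log2 fold change -0.12, SE 0.14, adjusted p = 0.694). Rpl34 was at 3.65, 3.92 and 3.63 against 5.52, 4.17 and 3.60 CPM (log2 fold change -0.24, SE 0.20, adjusted p = 0.531). Both overlapped between groups. Rpl30 was at 3.16, 4.13 and 4.55 against 4.86, 5.27 and 4.88 CPM (log2 fold change -0.34, SE 0.18, adjusted p = 0.331), without overlap. A pseudogene of Rpl34 held more counts than the gene itself: Rpl34-ps1 was at 67.1, 67.2 and 67.1 CPM in NKG2D+ and 94.6, 74.98 and 74.99 CPM in NKG2D- libraries. Reads of the gene and of this copy may have been parted by the counting, so the level of Rpl34 is uncertain.

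Sequence shared with other genes was common across the whole family. In the GENCODE M21 annotation of GRCm38, the median member had 93.0% of the 50-base windows of its coding sequence also present in a transcript of another gene, and 29 members had 100%. The 4 scarce members had 72.2% to 100%. Rpl4 had 20.3%, while Rpl5, at 100%, had group means of 2321 CPM (NKG2D+) and 3280.1 CPM (NKG2D-). Over the 77 members the rank correlation between this share and the level per length was -0.03, given as a description of genes measured in the same libraries. The authors' annotation and their read length are not given in the sources at hand, so how many reads each member lost was not tested.

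Levels between genes were compared per length, as CPM per kilobase of coding sequence, a scale that overstates members with a short coding sequence because reads from untranslated parts count as well. The 73 members at or above 10 CPM had a median of 3117 CPM per kb and ran from 877 to 13684, a range of 15.6 times. At the top were 3 of the shortest proteins, Rpl41 at 13684, Rps29 at 7596 and Rpl39 at 5722 CPM per kb. The coding sequence of Rpl41 has 75 bases, that of Rps29 168 and that of Rpl39 153. Rpl26 at 0.728, Rpl34 at 11.6 and Rpl30 at 13.0 CPM per kb were the lowest. Rpl41 was at 869, 1025 and 816 CPM in NKG2D+ against 1367, 1077 and 1004 CPM in NKG2D- libraries and overlapped (log2 fold change -0.35, SE 0.14). Rps29 was at 1049, 1301 and 932 CPM against 1573, 1421 and 1379.7 CPM and did not overlap (log2 fold change -0.41, SE 0.13).

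**Figure D4:**
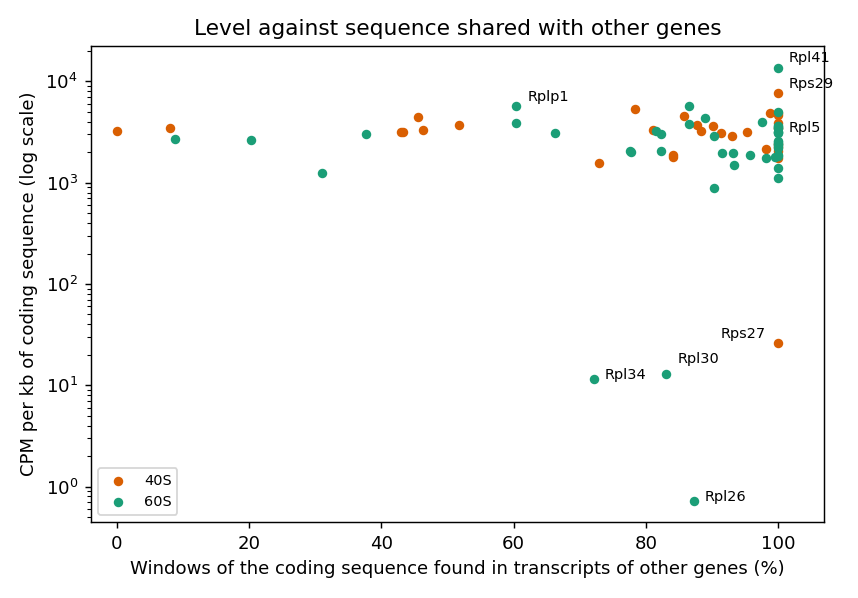
Level per length in CPM per kb of coding sequence (y axis, log scale, mean of the 2 population means) against the share of 50-base coding windows found in transcripts of other genes (x axis, %), 1 point per ribosomal protein gene. Rpl26, Rpl30, Rpl34 and Rps27 lie far below the other 73 genes, which run from 877 to 13684 CPM per kb.

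Most members varied together from library to library. After taking out the median shift of each library, the remaining SD of log2 CPM over the 6 libraries was 0.016 for Rpl4, a gene named here after its values were seen, and 0.027 for Rps6. Rpl38, a small 60S protein needed for the translation of certain Hox mRNAs in embryos, was the abundant member that departed most, with 0.297. It was at 282, 529 and 422 CPM in NKG2D+ and 399, 585 and 553 CPM in NKG2D- libraries, and had the widest spread within groups, at 0.39 on the log2 scale. Both mouse 1 libraries were low in Rpl38, where for most members NKG2D- library 1 was the highest of its group. Within each mouse Rpl38 was lower in NKG2D+ cells, by -0.50, -0.15 and -0.39 on the log2 scale. By edgeR over all libraries the adjusted p was 0.514 without pairing. With the replicate number as a block, the estimate was -0.35 and the adjusted p 0.129. The unpaired estimate of Rpl38 over all libraries, -0.32, was -0.11 without NKG2D+ library 1 and -0.54 without NKG2D+ library 2.

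All 3 ribosomal proteins tested whose names fall outside the rule had negative estimates, against 52.8% of all genes. By edgeR 0 passed, and by DESeq2 1, Gnb2l1, as lower, against 3.03% of all genes. Gnb2l1, which encodes the 40S scaffold RACK1, had a log2 fold change of -0.43 (SE 0.14, adjusted p = 0.149), with 1917, 2679.5 and 2028 CPM in NKG2D+ against 3124, 2949 and 2864 CPM in NKG2D- libraries. Fau, a fusion of a ubiquitin-like and a 40S protein, had -0.28. The 6 tested paralogs were split, 3 negative and 3 positive. Of these, 0 were called by edgeR and 1, Rpl22l1, by DESeq2, as lower, against 3.03% of all genes. Rpl7l1 at -0.17 and Rpl36al at -0.26 were negative like Rpl22l1, and Rps27l at 0.07, Rpl39l at 0.34 and Rps4y2 at 0.69 positive.

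Genes for making ribosomes were also lower in estimate. Of 40 genes of ribosome biogenesis, 40 had a negative log2 fold change, against 52.8% of all genes. Their median was -0.37. At an unadjusted p under 0.05, 33 were lower, against 8.62% of all genes. By DESeq2 15 were lower, against 3.03% of all genes, and 0 higher, while by edgeR 0 passed. Dkc1, the pseudouridine synthase dyskerin, had the smallest p, at 81.3, 99.8 and 96.0 CPM in NKG2D+ against 137, 119 and 129 CPM in NKG2D- libraries (log2 fold change -0.47, SE 0.10, adjusted p = 0.0661). Of 10 tested genes of RNA polymerase I and its factors, which transcribe rRNA, 9 were negative, against 52.8% of all genes. The median of the 10 was -0.26, and 5 were lower at an unadjusted p under 0.05 by edgeR, against 8.62% of all genes. By DESeq2 2 were lower, against 3.03% of all genes, and by edgeR 0 passed. Polr1c, a subunit, had the smallest p there (log2 fold change -0.32, adjusted p = 0.093). The 22 other genes with TOP mRNAs, among them elongation factors and snoRNA host genes, were all negative, against 52.8% of all genes. Their median was -0.28. By edgeR 0 passed and by DESeq2 6, all as lower, against 3.03% of all genes. Naca, which guards new chains at the ribosome, had the smallest p of the 22 (log2 fold change -0.34, adjusted p = 0.0947).

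Genes that control TOP mRNAs through mTORC1, with Myc, a driver of ribosome production, and its partner Max, had a median of -0.10 over 17 genes. By edgeR 0 passed, and by DESeq2 1, Myc (adjusted p = 0.0408), as lower, against 3.03% of all genes. Myc had the smallest p, at 85.2, 149 and 123 CPM in NKG2D+ against 221, 165 and 164 CPM in NKG2D- libraries (log2 fold change -0.62, SE 0.22, adjusted p = 0.174 by edgeR). Its groups did not overlap, and like most ribosomal proteins it was highest in NKG2D- library 1 and lowest in NKG2D+ library 1. Larp1, which binds TOP mRNAs, stood at -0.27 on the log2 scale (adjusted p = 0.342), and Mtor itself at -0.02. Rptor, the scaffold of mTORC1, was positive at 0.26 (adjusted p = 0.224), the 1 gene of the list that was higher at an unadjusted p under 0.05. The 76 genes of mitochondrial ribosomal proteins, which form a separate ribosome, had a median of -0.11. Of these, 65 were negative, against 52.8% of all genes. At an unadjusted p under 0.05, 8 were lower, against 8.62% of all genes. By edgeR 0 passed, and by DESeq2 1, Mrps18b, as lower, against 3.03% of all genes. Mrps18b had the smallest p, with a log2 fold change of -0.42 (SE 0.12, adjusted p = 0.127). The difference between the cytosolic and the mitochondrial genes was not tested.

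**Figure D5:**
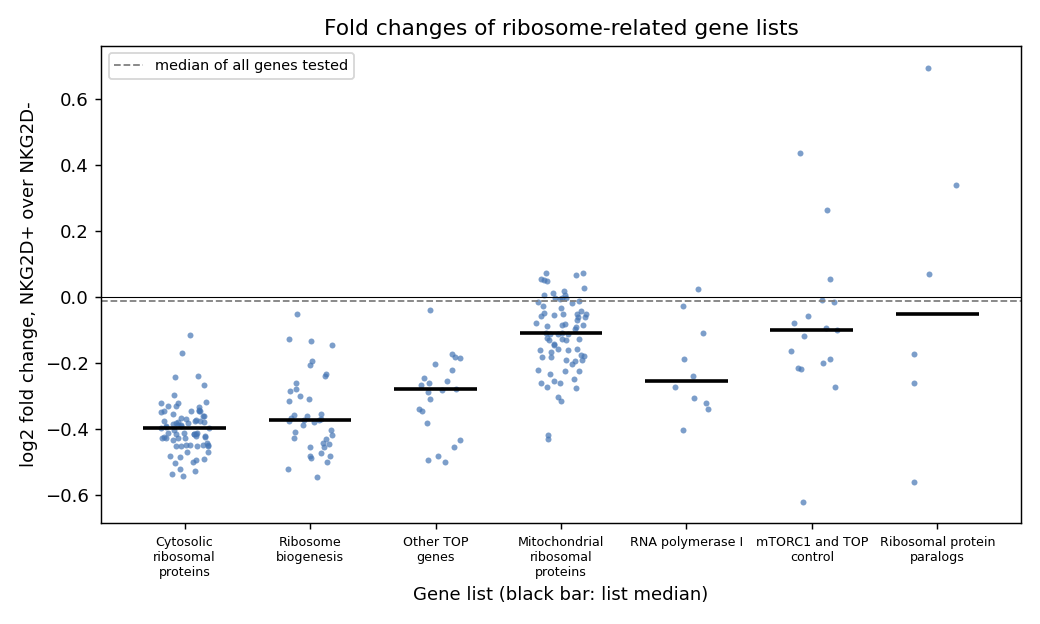
Log2 fold change of NKG2D+ over NKG2D- (y axis) of the tested genes of 7 ribosome-related lists (x axis), 1 point per gene, with the list median as a black bar and the median of all genes tested as a dashed line. Cytosolic ribosomal proteins (-0.40) and ribosome biogenesis genes (-0.37) have the most negative medians, and mitochondrial ribosomal proteins (-0.11) lie nearer to 0.

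Some markers of T-cell state passed the test in the same libraries. Of 10 genes of naive T cells 3 fell in NKG2D+ cells, against 0.363% of all genes, Dapl1, Igfbp4 and the alpha-actinin gene Actn1, with log2 fold changes of -1.23, -1.87 and -1.31 (adjusted p = 0.00714, 0.0153 and 0.0153 by edgeR). Of 12 cell-cycle genes 5 rose, against 1.65% of all genes, among them Mki67, the Ki-67 proliferation antigen, with a log2 fold change of 1.12 (adjusted p = 0.0089), while 0 ribosomal protein genes were higher. The summed naive genes were at 3047, 3713 and 3303 CPM in NKG2D+ against 4948, 4358 and 4454 CPM in NKG2D- libraries. Il7r, the interleukin-7 receptor gene, had the opposite sign to the other 9 genes of the list (log2 fold change 0.42, adjusted p = 0.305), and without it the sums were 1742, 2898 and 2392 against 4032, 3703 and 3757 CPM. The part of these differences in the ribosomal protein values was not tested.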

How the data were processed

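RNA of 6 sorted T-cell samples was extracted on miRNeasy columns with DNase digestion and prepared with a TruSeq kit, as the labels' protocols state. The authors deposited raw read counts per gene symbol, without normalisation. The submitters' processing notes name CASAVA 1.8.2, TopHat2 2.0.4 and mm9. The counting program, its annotation and its use of strand are not stated in the sources at hand. The 5 summary counts in each file that name no gene (no feature 14.0% to 15.9%, ambiguous 0.715% to 0.836%, aligned to several places 19.7% to 26.2%) entered neither library sizes nor tests.

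Counts were tested in R 4.3.3 with edgeR 4.0.16 (TMM, filterByExpr with a minimum count of 10 and total of 15, robust quasi-likelihood F-test, legacy mode) over 12951 genes, with Benjamini-Hochberg adjustment and a threshold of 0.05. DESeq2 1.42.0, other scalings, no filter, a replicate block and leaving out each library were alternatives. CPM use TMM-scaled library sizes. The standard error is the log2 fold change divided by the square root of F. The script was tested on simulated data.

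Replicate numbers come from the labels, and the series text names separate mice. Deviations from group means, over genes, correlated at r = 0.252, 0.196 and 0.380 between same-numbered libraries of the 2 populations. Differently numbered libraries gave r from -0.214 to 0.024, so the numbers were taken to pair the samples. The edgeR and DESeq2 tests did not use this pairing, except in the fit with the replicate block. Within each population no library was a copy of another: between replicates the chi-square per degree of freedom was 40.7 to 235. Libraries of different populations were not compared in this way.

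The members, gene lists and tests were chosen with earlier results of these data known. Named members were the 5 most negative and 5 most positive log2 fold changes, the 3 highest and 3 lowest per coding kb, the widest and narrowest spread and 11 members with known roles. In other lists up to 3 called genes were named, or else the gene with the smallest p. Lengths, transcripts (GENCODE M21) and promoters (RefSeq) are of GRCm38, not mm9, and gave names, lengths and sequences only. All 77 members matched GENCODE. Some genes counted here are not reported by name.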

Additional observations from a re-analysis of the deposited data

How the results depend on the processing

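The direction held widely and the calls did not. The number of ribosomal protein genes called lower was 0 by edgeR, with 68 at an unadjusted p under 0.05, and 41 by DESeq2. With 1 library left out in turn it ranged from 0 to 67, the 67 being without NKG2D+ library 2. The median log2 fold change then ranged from -0.55 to -0.32, the log2 ratio of summed CPM from -0.56 to -0.33 and that of the 40S to 60S balance from -0.04 to -0.01. With the replicate block 0 members were called, the median was -0.41 and the smallest adjusted p of a member 0.124, while calls over all genes went from 261 to 68. Without TMM the median was -0.32, with 55 members lower at an unadjusted p under 0.05. All 77 estimates were negative under each setting except without NKG2D- library 3, where Rpl26, at under 1 CPM, was at 0.037 (adjusted p = 0.985), against -0.43 without NKG2D+ library 3. The cause of these changes was not tested. Low counts limit Rpl26. Whether reads aligned to several places limit the level of members with close copies was not tested. Leaving out NKG2D- library 1 gave -0.06 for Rpl34 and -0.21 for Rpl41.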

Other observations

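Rpl3l, a paralog of Rpl3 known from heart and skeletal muscle, was present in both libraries of mouse 1 and nearly absent from the other 4. It had 1062, 1 and 0 counts in NKG2D+ and 971, 2 and 3 counts in NKG2D- libraries 1, 2 and 3, or 16.1 and 24.5 CPM in the mouse 1 libraries. Against a floor of 3 counts in each other library, the mouse 1 level was at least 318-fold higher. The gene did not pass the filter on low counts and was not tested. A scan added after seeing this value looked for genes with at least 1 CPM in both libraries of a mouse and at least 8-fold above the other 4. Among 23284 genes it found 1 for mouse 1 (Rpl3l), 0 for mouse 2 and 1 for mouse 3 (Baiap2l1). The muscle genes Acta1 and Ckm stayed below 1 CPM in every library and Myl1 and Mb were at 0. Mouse and lane cannot be told apart here.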
